A study of Mus musculus with 17 samples.

Results

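Small nucleolar RNA host genes were followed in RNA sequencing of sorted AT2 cells (alveolar type 2 cells), which line the lung's air sacs and make surfactant. The group comprised 9 genes named by symbol, Snhg1, Snhg3, Snhg5, Snhg6, Snhg8, Snhg11, Snhg12, Snhg15 and Gas5, and 7 of them had a row among the 43430 genes of both count tables. The IDs of Snhg1 and Snhg8 had no row, and these genes were not analysed here. The group was chosen by a measured value, the p of Snhg11, second lowest among the genes that fell after bleomycin, so all values from that comparison are given below as a description, without a test of the host genes. By p among falls, the gene before Snhg11 was Pon1 (log2 fold change -3.68, SE 0.28) and the gene after it was Atp6v1c2 (log2 fold change -1.36, SE 0.12).

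All 17 libraries came from sorted AT2 cells of C57BL/6J mice aged 2 months. In the first experiment, 4 vehicle and 4 ISRIB libraries of naive mice were made 24 h after dosing, from 3 ng of total RNA with poly(A) selection. ISRIB is a small molecule that blunts the integrated stress response through the translation factor eIF2B. In the second, 4 naive libraries and 5 libraries from mice 14 days after bleomycin, a drug that injures the lung epithelium and leads to fibrosis, were made from 0.35 ng with a total-RNA kit. The treatment label of these 9 libraries is vehicle and their titles say saline, in naive and bleomycin mice alike. The labels do not say whether each library is 1 mouse, so the p-values measure the spread between libraries only. Since kit and experiment coincide, comparisons were made within a kit.

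A small nucleolar RNA host gene is transcribed as a long RNA whose introns carry small nucleolar RNAs (snoRNAs). Once the introns are spliced out and trimmed, box C/D snoRNAs guide ribose methylation and box H/ACA snoRNAs guide pseudouridylation, mostly of ribosomal RNA, while a few take part in cleavage of the ribosomal RNA precursor. The spliced exons of many host genes carry short reading frames, and such RNAs are known substrates of nonsense-mediated decay, which depends on translation. Many host genes start within a run of pyrimidines, as ribosomal protein genes do.

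Poly(A) libraries held 10493574 to 15727139 counts each, and total-RNA libraries 3295257 to 6333166. The 12 AT2 markers summed to 229859 to 233529 CPM (counts scaled to a common library total) in the poly(A) libraries, 95470 to 99950 in naive and 56406 to 109009 in bleomycin libraries. The 8 alveolar type 1 markers summed to 1064 to 1276 in naive and 1875 to 2235 in bleomycin libraries. The 8 fibroblast markers summed to 3.88 to 9.10 and 17.8 to 119.9, and the 7 endothelial markers to 19.4 to 26.8 and 19.8 to 80.4. After bleomycin, edgeR called higher the 3 fibroblast genes tested, the collagens Col1a1, Col3a1 and Col1a2. Under the filter, Dcn went from a mean of 0.05 to 1.81 CPM and Pdgfra from 0.93 to 1.00. Pdgfrb went from 0.90 to 1.15 and Tcf21 from 0.15 to 0, and Lum had no count. Of 5 endothelial genes tested, 4 had a log2 fold change above 0 and 1 below, and edgeR called 2 higher, Vwf and Cdh5. The 6 airway markers summed to 445 to 875 and 489 to 960. Of 5 tested, edgeR called 2 higher after bleomycin, the ciliated cell genes Foxj1 (3.37 ± 0.95 to 16.3 ± 13.9 CPM, SD, adjusted p = 0.00440) and Ccdc153 (3.63 ± 2.10 to 12.3 ± 8.54 CPM, adjusted p = 0.0181). Scgb1a1, of the same list, went from a mean of 604 to 536 CPM, and 4 of the 5 had a log2 fold change above 0. Of the 8 alveolar type 1 markers, edgeR called 6 higher, among them Pdpn, Akap5, Clic5 and Hopx. Of the 12 AT2 markers, it called 2 higher, Sftpd and Napsa, and 1 lower, Etv5. Of all genes, 11.2% were called higher and 9.31% lower. The 10 macrophage and monocyte markers stayed between 6.45 and 11.3, with C1qa at 0 throughout, and the 10 neuroendocrine and neuronal markers between 1.29 and 6.07. The part of these shifts in the results below was not tested. In sorted bulk cells, fewer cells of a type and less RNA per cell cannot be told apart.

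The start regions of 4 measured host genes are shown from 70 bases before to 30 bases after the start, because the best-measured genes differ there. They are from RefSeq, GRCm38.p6, read along the gene, with matches to the searched motifs in capitals. For Gas5 the second of its 2 RefSeq starts is used, near which 14 of its 25 GENCODE transcripts begin.
Snhg11, chr2:158375643-158375742, plus strand: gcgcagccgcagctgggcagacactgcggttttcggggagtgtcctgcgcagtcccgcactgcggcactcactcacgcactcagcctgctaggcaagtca
Gas5, chr1:161035096-161035195, plus strand: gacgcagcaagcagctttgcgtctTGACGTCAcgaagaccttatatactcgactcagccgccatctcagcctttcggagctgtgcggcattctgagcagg
Snhg5, chr9:88522868-88522967, minus strand: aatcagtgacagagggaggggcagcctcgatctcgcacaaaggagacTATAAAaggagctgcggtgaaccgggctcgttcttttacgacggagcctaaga
Snhg12, chr4:132308608-132308707, plus strand: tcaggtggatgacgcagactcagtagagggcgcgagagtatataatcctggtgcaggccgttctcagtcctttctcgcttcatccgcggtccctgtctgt

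Promoter entries of 300 bases were matched for 6 of the 7 measured genes. They were searched on both strands for the core promoter element TATAAA, the cyclic AMP response element TGACGTCA, the Sp-family element GGGCGG, the E-box CACGTG and the NF-Y element CCAAT, none of which contains another. Snhg11 and Snhg12 held no exact match to any of the 5, and near matches, such as tatataa in Snhg12, were not counted. TATAAA occurred in Snhg5, 23 bases before the start, and in Snhg3, 22 bases after it, against 13.6% of all 32851 promoters. TGACGTCA occurred in Gas5, 46 bases before the second start, and in Snhg15, 88 bases before the start, against 1.79% of promoters. GGGCGG occurred in Gas5, Snhg15 and Snhg5, against 35.7% of promoters. CCAAT occurred in Snhg3 and Snhg5, against 37.4%, and CACGTG in Snhg15, against 7.15%. Within 20 bases of the start, the longest run of pyrimidines was 9 bases in Snhg12, 7 in Snhg5 and 6 at the second start of Gas5. It was 5 in Snhg3, 4 in Snhg11 and in Snhg15 and 3 at the first start of Gas5. The median over all promoters was 5, and most had runs of 3 to 9, a range that holds all of these genes. These matches describe letters in a window and no more.

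Levels per length placed different genes first with the 2 kits. CPM were scaled by TMM factors and divided by the summed exon length in kilobases. In vehicle poly(A) libraries, Gas5, a gene first found in growth-arrested cells that carries box C/D snoRNAs, was highest at 11.8 ± 0.67 CPM per kb (SD, n = 4). Snhg6 followed at 3.50 ± 0.95, Snhg11 at 2.39 ± 0.53, Snhg5 at 2.16 ± 0.52, Snhg12 at 1.61 ± 0.11, Snhg3 at 1.25 ± 0.23 and Snhg15 at 0.53 ± 0.40 CPM per kb. Gas5 stood clear of Snhg6, while every later neighbour in this order overlapped the next. In naive total-RNA libraries, Snhg11 was first at 20.9 ± 3.17 CPM per kb (SD, n = 4) and Gas5 second at 15.6 ± 0.74, with no overlap between them. Snhg5 (4.73 ± 0.39) and Snhg12 (3.91 ± 0.49) overlapped each other, as did the neighbours among Snhg3, Snhg15 and Snhg6, at 1.86 to 2.30 CPM per kb. In bleomycin libraries, Gas5 was again first at 12.1 ± 2.87 CPM per kb (SD, n = 5) and Snhg11 second at 5.16 ± 1.08, without overlap. Annotation limits these levels. The exons of Snhg3 overlap those of Rcc1 on the same strand and of Gm17300 on the opposite strand, and those of Snhg6 overlap Mcmdc2 on the opposite strand. For Gas5, 20 of the 25 transcripts are retained-intron models, and for Snhg11, 2 of 5. The annotated exons cover 8521 of the 10508 bases of Snhg11 and all 2402 bases of Snhg12, so intron reads may be counted as exon reads.

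After bleomycin, the level of Snhg11 was 4.06-fold lower. Snhg11 lies on chromosome 2 at 158375638 to 158386145 (GRCm38); it is best known as a transcript of neurons, and GENCODE lists it as protein coding and RefSeq as a long noncoding RNA. Its level was 167, 195, 145 and 204 CPM in the 4 naive libraries and 45.2, 28.9, 44.3, 53.5 and 48.0 CPM in the 5 bleomycin libraries. The means were 177.7 ± 27.0 and 44.0 ± 9.18 CPM (SD), and the log2 fold change was -2.02 (SE 0.16). The lowest naive library was well above the highest bleomycin library. Of 11223 genes tested, 93 had a log2 fold change at or below that of Snhg11, with Snhg11 itself counted. Of these, 4 also had a mean CPM at least as high, again with Snhg11 counted. These values include those that chose the group.

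The other host genes differed less between the same libraries. Gas5 was at 61.0, 61.3, 56.7 and 56.0 CPM in naive libraries and 53.4, 46.4, 52.7, 26.9 and 47.7 in bleomycin libraries, a log2 fold change of -0.36 (SE 0.16). All 5 bleomycin libraries lay below all 4 naive libraries, and the lowest, bleomycin 4, lay apart; without it the log2 fold change was -0.23. Snhg12, which carries snoRNAs of both box classes, was at 8.72, 9.40, 8.41 and 11.03 CPM in naive and 7.67, 6.14, 6.66, 1.24 and 5.07 in bleomycin libraries, a log2 fold change of -0.79 (SE 0.37). Here too the groups did not overlap and bleomycin 4 was lowest, with only 4 counts; without it the value was -0.56. Snhg5, the host of the U50 box C/D snoRNAs, was at 7.71, 9.19, 7.81 and 8.05 CPM in naive and 5.82, 4.15, 8.52, 12.99 and 6.18 in bleomycin libraries, a log2 fold change of -0.15 (SE 0.33). The Snhg5 groups overlapped, and bleomycin 4, the lowest library for Gas5 and Snhg12, was the highest for Snhg5. Bleomycin 4 had a total of 3299824 counts and the fewest genes with a count, 13940.

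The remaining 3 host genes were under the count filter in the total-RNA libraries. Snhg3, the host of the Snora73 RNAs, was at 2.27 ± 1.04 CPM in naive and 1.03 ± 0.81 in bleomycin libraries (SD), from 1 to 14 counts a library. Snhg6, the host of Snord87, was at 2.13 ± 0.88 and 1.99 ± 1.03 CPM, and Snhg15, the host of Snora9, at 2.59 ± 0.38 and 1.85 ± 0.62 CPM. The groups overlapped for each of the 3. Across the 4 host genes that passed the filter, 3 had groups that did not overlap with bleomycin lower, where 9.35% of all genes tested did. Snhg11 is among the 3 and the comparison is the one that chose the group, so nothing is read from this count.

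**Figure D1:**
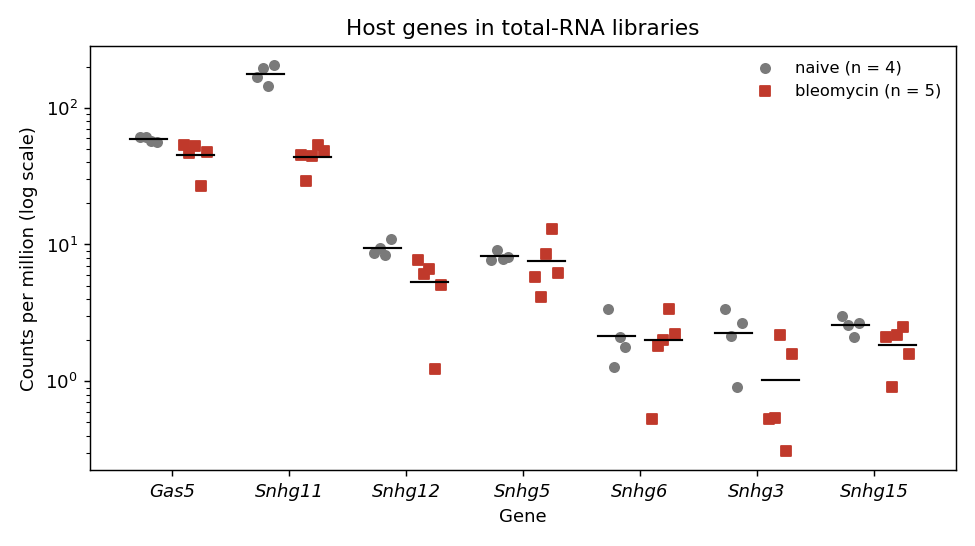
Level of each host gene in every total-RNA library, in CPM on a log axis; circles are naive and squares bleomycin libraries, and the black line is the group mean. Snhg11 has means of 177.7 and 44.0 without overlap, while Snhg5, Snhg6, Snhg3 and Snhg15 overlap between the groups.

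The ratio of the 2 most abundant host genes is given as a description only, since Snhg11 in the naive and bleomycin libraries chose the group. The ratio of Snhg11 counts to Gas5 counts was 2.56 to 3.65 in the naive libraries and 0.62 to 1.99 in the bleomycin libraries, with a median of 0.85. The highest bleomycin ratio was that of bleomycin 4, where Gas5 was lowest. Of the counts of all 7 genes together, Snhg11 made up a median of 67.5% in naive and 39.2% in bleomycin libraries, and Gas5 23.0% and 44.4%. The share of Gas5 depends on Snhg11, and the mean level of Gas5 itself was 58.8 CPM in naive and 45.4 CPM in bleomycin libraries. In the poly(A) libraries the ratio was 0.40 to 0.57 with vehicle and 0.46 to 0.65 with ISRIB, below every total-RNA library except that the highest ISRIB value exceeded the lowest bleomycin value. Levels across the kits were set by separate preparations and are given side by side only.

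**Figure D2:**
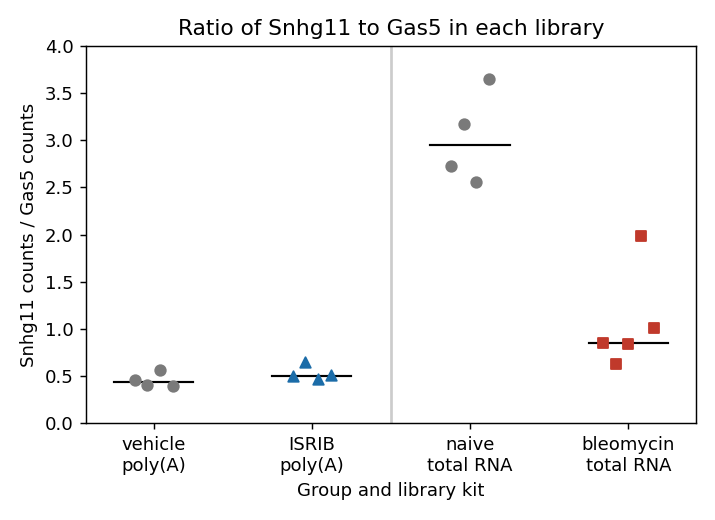
Ratio of Snhg11 counts to Gas5 counts in each library, by group and kit; each symbol is a library and the black line is the group median. The naive total-RNA libraries lie between 2.56 and 3.65, and the bleomycin libraries between 0.62 and 1.99. Snhg11 in these libraries chose the group.

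The genes whose pattern over the 9 total-RNA libraries was most like that of Snhg11 were sought among 9666 genes with a mean of at least 5 CPM, by Pearson's r of log2(CPM + 0.5). The 5 closest were Fgfr2, a fibroblast growth factor receptor (r = 0.988), Plekhg5 (r = 0.987), Arhgef38 (r = 0.985), Zfp704 (r = 0.983) and Cst8, a member of the cystatin family (r = 0.979). Fgfr2 went from 1039 ± 25.2 to 593 ± 50.7 CPM (SD) and Cst8 from 22.5 ± 3.81 to 2.82 ± 1.19 CPM. For the host genes the same r was 0.42 with Snhg5, 0.51 with Snhg12 and 0.51 with Gas5. The points share the naive and bleomycin grouping. With the group means taken out, r with Snhg11 was 0.72 (Cst8) to 0.79 (Fgfr2) for the 5 closest genes, 0.73 for Snhg5, -0.36 for Snhg12 and -0.33 for Gas5. The 5 closest genes were picked by r over these same libraries, which raises this r too. The host genes were not picked in this way, so nothing is read from the contrast.

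Most snoRNAs inside the host genes had no counts. Of 32 annotated models inside the 9 genes, 30 had a row and 6 of these had a count in any library. Among the 27 with a row whose models overlap an exon of the host, 24 were at 0 in all 17 libraries. In a single library, a 0 can still arise from an expected count of up to about 3. Of the 3 that overlap no host exon, none was at 0 in all 17 libraries. How reads over 2 models were assigned is not stated by any source used here, so these zeros cannot be told apart from reads left unassigned. In the poly(A) libraries the summed counts over a group of 4 were at most 5 for any hosted snoRNA.

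In the total-RNA libraries, 5 hosted snoRNAs exceeded 1 CPM, and the most abundant was Snord87, a box C/D snoRNA within an intron of Snhg6. Its sequence (GENCODE M21, GRCm38) is shown because it was the most abundant of the 5. Capitals mark the C box and the D box found by their letters.
Snord87, chr1:9942463-9942549, minus strand: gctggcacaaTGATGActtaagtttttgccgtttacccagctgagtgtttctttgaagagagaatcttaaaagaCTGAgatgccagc

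Snord87 was at 99.0, 36.5, 59.2 and 53.1 CPM in naive and 9.79, 12.1, 6.50, 16.4 and 9.34 CPM in bleomycin libraries, a log2 fold change of -2.54 (SE 0.27), with no overlap between the groups. Its host Snhg6 was at 3.35, 1.28, 2.10 and 1.79 CPM in naive and 0.53, 1.80, 2.01, 3.40 and 2.22 CPM in bleomycin libraries, which overlapped, at 2 to 14 counts a library. These counts were under the filter and too low to say whether Snhg6 changed. Snora16a in Snhg12 went from 7.44 ± 5.78 to 2.12 ± 0.77 CPM (SD). Its groups did not overlap but all but touched, at 3.20 CPM in naive 2 and 3.17 CPM in bleomycin 5. Of all genes tested, 9.35% had groups that did not overlap with bleomycin lower. Snora24 in Snhg8 went from 6.59 ± 4.43 to 1.91 ± 1.53 CPM, with overlap. Naive 1 was the highest naive library for all 5; without it the naive mean was 49.6 CPM for Snord87, 4.66 for Snora16a and 4.43 for Snora24.

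SnoRNAs outside the host genes were lower after bleomycin as well. Of 62 snoRNA and small Cajal body RNA models outside the host genes that passed the filter, 61 had a log2 fold change below 0, with a median of -1.75, and 43 were called lower and none higher by edgeR, against 9.31% and 11.2% of all genes. Their summed level was 614 to 1768 CPM in naive libraries, highest in naive 1, and 283 to 384 CPM in bleomycin libraries. This set was drawn from the annotation after the values of the hosted snoRNAs were seen.

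Snora73a and Snora73b, the H/ACA snoRNAs of Snhg3 that act in cleavage of the ribosomal RNA precursor, are near-identical copies, so reads may be split between them or lost. They are shown because 96.6% of their 205 bases are identical; capitals mark the 7 positions that differ.
Snora73a, chr4:132352775-132352979, minus strand: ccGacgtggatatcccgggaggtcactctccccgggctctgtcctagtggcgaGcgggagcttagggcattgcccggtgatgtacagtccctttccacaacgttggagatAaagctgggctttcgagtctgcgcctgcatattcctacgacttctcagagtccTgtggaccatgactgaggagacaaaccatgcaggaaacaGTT
Snora73b, chr4:132352322-132352526, minus strand: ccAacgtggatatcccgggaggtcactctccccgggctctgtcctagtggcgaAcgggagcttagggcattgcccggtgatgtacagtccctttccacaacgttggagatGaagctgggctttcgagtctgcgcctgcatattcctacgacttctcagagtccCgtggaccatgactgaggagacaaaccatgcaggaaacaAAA

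Snora73b was at 36.9, 13.03, 22.2 and 12.2 CPM in naive and 2.12, 21.7, 4.65, 7.73 and 6.49 CPM in bleomycin libraries. Snora73a was at 17.8, 6.20, 11.7 and 4.47 CPM in naive and 2.38, 8.84, 1.70, 2.48 and 3.96 CPM in bleomycin libraries. For both, bleomycin 2 lay within the naive range and the other 4 bleomycin libraries below it. In bleomycin 2 the host Snhg3 had 3 counts.

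**Figure D3:**
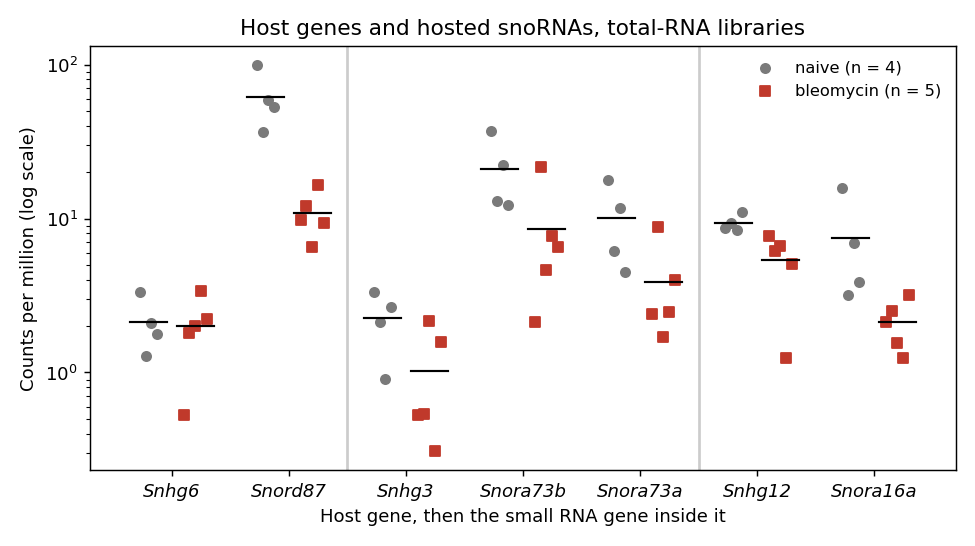
Level of 3 host genes and of the snoRNAs inside them in every total-RNA library, in CPM on a log axis; circles are naive and squares bleomycin libraries, lines are group means, and vertical lines separate the hosts. Snord87 separates the groups (means 61.9 and 10.8). Its host Snhg6 overlaps between them (2.13 and 1.99), at counts under the filter that are too low to say whether it changed.

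ISRIB left no host gene past the threshold at 24 h. None of the 6 host genes that passed the filter was called by edgeR's quasi-likelihood test, against 2.2% of 12054 genes. None had an unadjusted p under 0.05 in edgeR, where 1934 of the 12054 had. DESeq2 called none of the 2 to which it gave an adjusted p, where it called 406 of all genes. It had 1 unadjusted p under 0.05 among the 6, where 1656 of the 12054 had. With 6 genes, nothing is read from these counts. The median log2 fold change of the 6 was 0.09. No group pair was free of overlap, where 8.65% of all genes were.

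With all 8 libraries, Snhg11 had the largest difference of the 6; Snhg12 exceeded it without ISRIB 2, vehicle 1, vehicle 2 or vehicle 4. Snhg11 was at 19.1, 18.2, 27.0 and 17.2 CPM with vehicle and 23.2, 31.3, 24.8 and 21.1 CPM with ISRIB, means of 20.4 ± 4.497 and 25.1 ± 4.43 (SD, n = 4). Its log2 fold change was 0.28 (SE 0.14, adjusted p = 0.329 by edgeR), with a 95% interval of -0.01 to 0.58 that is not adjusted for the number of genes. Vehicle 3 lay above 3 of the 4 ISRIB libraries; without it the log2 fold change was 0.46 (adjusted p = 0.0616), without ISRIB 2, the highest library, it was 0.16 (adjusted p = 0.638), and over all alternatives the adjusted p ranged from 0.0616 to 0.638.

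Gas5, the most precisely measured, was at 41.6, 44.6, 47.5 and 43.2 CPM with vehicle and 46.8, 48.5, 53.5 and 41.1 with ISRIB, a log2 change of 0.10 (SE 0.08, adjusted p = 0.575 by edgeR) and an interval of -0.06 to 0.26. The groups interleaved, with the lowest of all 8 libraries in the ISRIB group; without ISRIB 3 the value was 0.042, and without ISRIB 4 it was 0.16. Snhg12 was at 4.03, 3.89, 3.47 and 4.08 CPM with vehicle and 5.04, 3.92, 5.72 and 3.51 with ISRIB, a log2 change of 0.24 (SE 0.19, adjusted p = 0.579, interval -0.16 to 0.64), and 0.13 without ISRIB 3. ISRIB 1 and 3 lay above the vehicle range and the other two within it.

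The box C/D hosts Snhg5 and Snhg6 were low in these libraries. Snhg5 was at 2.81, 3.26, 4.06 and 4.85 CPM with vehicle and 3.32, 5.61, 3.31 and 3.68 with ISRIB, a log2 change of 0.09 (SE 0.23, adjusted p = 0.907, interval -0.39 to 0.56). Snhg6 was at 3.07, 3.44, 3.999 and 5.53 CPM with vehicle and 4.47, 3.92, 3.94 and 3.68 with ISRIB, a log2 change of 0.01 (SE 0.20, adjusted p = 0.989, interval -0.41 to 0.43). All ISRIB values of Snhg6 lay within the vehicle range. Snhg3, at 9 to 20 counts a library, had a log2 change of -0.08 (SE 0.32, adjusted p = 0.940, interval -0.76 to 0.60). Snhg15 was under the filter at 0.72 ± 0.54 CPM with vehicle and 0.52 ± 0.09 with ISRIB. A p that misses the threshold does not show that these levels were alike, and the intervals of Snhg3, Snhg5, Snhg6 and Snhg12 reach 0.43 or more on the log2 scale.

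**Figure D4:**
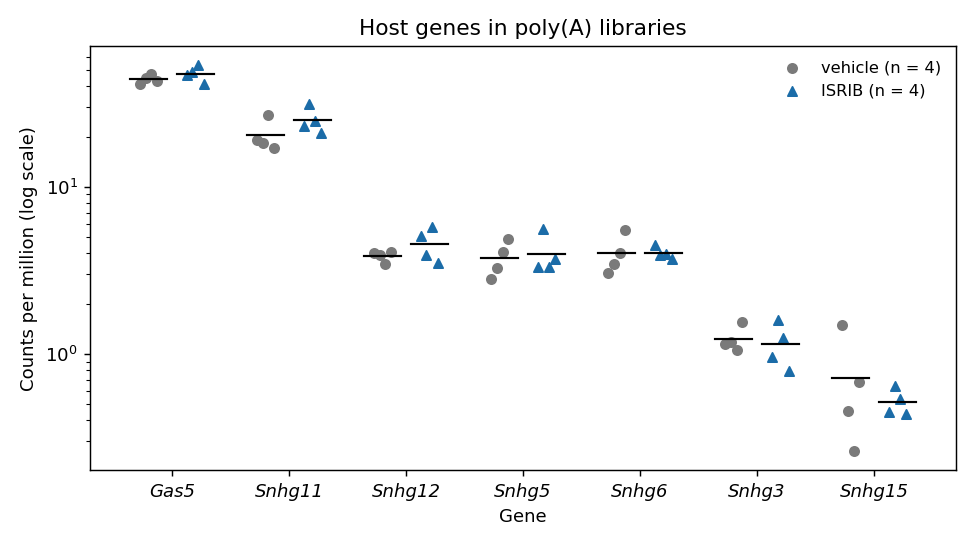
Level of each host gene in every poly(A) library, in CPM on a log axis; circles are vehicle and triangles ISRIB libraries, and the black line is the group mean. The groups overlap for all 7 genes, Snhg11 having means of 20.4 and 25.1.

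**Figure D5:**
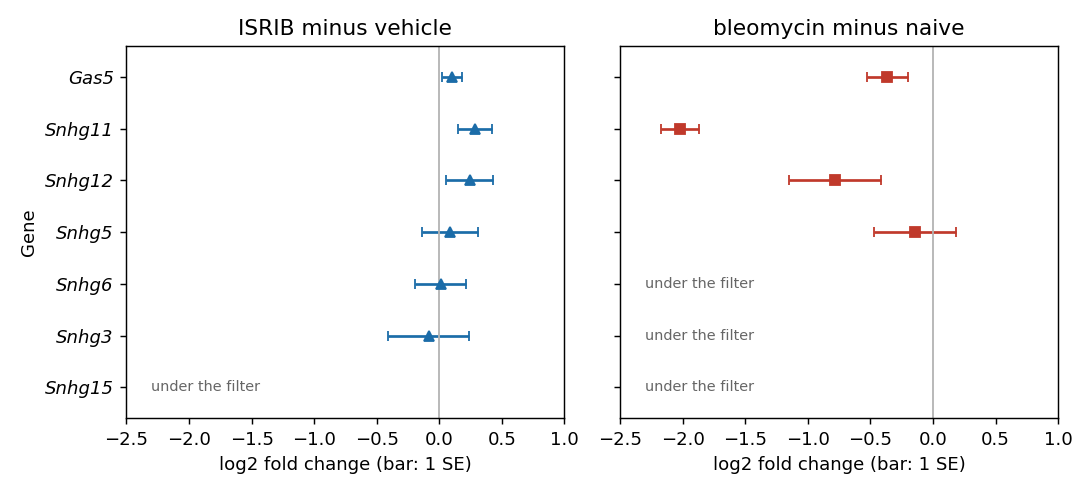
Log2 fold change of each host gene that passed the count filter, ISRIB minus vehicle on the left and bleomycin minus naive on the right, with bars of 1 standard error. Snhg11 is at 0.28 and -2.02.

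Other noncoding host genes were measured alongside. Of 12 listed, 7 had a row. After ISRIB, 6 were tested and none was called by edgeR or DESeq2. In edgeR, 1 had an unadjusted p under 0.05, where 1934 of all 12054 genes had. That gene, Zfas1, the noncoding antisense host beside Znfx1, was at 20.2 ± 2.93 and 24.6 ± 1.41 CPM (0.29 on the log2 scale, SE 0.10, adjusted p = 0.150 by edgeR). After bleomycin, 4 were tested and none was called by edgeR or DESeq2. None had an unadjusted p under 0.05 in edgeR, where 3740 of all 11223 genes had. With so few genes, no call is near the 2.2% of all genes called after ISRIB and the 11.2% higher and 9.31% lower after bleomycin. Their values were -0.40 for Snhg17, -0.53 for Snhg18, -0.38 for Snhg20 and -0.08 for Zfas1 (log2 fold change), with a median of -0.39.

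The proteins that assemble and process snoRNAs were also followed. Of 19 snoRNP proteins and assembly factors, all tested, edgeR called 2 higher and none lower after bleomycin (median log2 fold change 0.25). The calls higher are near the 11.2% of all genes called higher. With 19 genes, no call lower is not far from the 9.31% of all genes called lower, so nothing is read from these counts. Nhp2, an H/ACA core protein, went from 4.69 ± 0.59 to 10.04 ± 3.44 CPM (log2 fold change 1.10, SE 0.32, adjusted p = 0.0209). Nop58, a C/D core protein, went from 29.7 ± 4.82 to 44.9 ± 10.6 CPM (log2 fold change 0.58, SE 0.18, adjusted p = 0.0278). After ISRIB, edgeR called none of the 19, where 2.2% of all genes were called. Of the 19, 3 had an unadjusted p under 0.05 in edgeR, near the share of all genes, 1934 of 12054. DESeq2 called 1, where it called 406 of the 12054.

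Among 18 nonsense-mediated decay factors, edgeR called 2 lower after bleomycin and none higher (median -0.11). Of all genes, 9.31% were called lower and 11.2% higher. With 18 genes, neither count is far from these shares, so nothing is read from them. Of the 18, 8 had a log2 fold change above 0 and 10 below. Smg6, the endonuclease of the pathway, went from 76.3 ± 9.17 to 53.1 ± 7.84 CPM (log2 fold change -0.53, SE 0.13, adjusted p = 0.00908), and Upf2, a core surveillance factor, from 87.8 ± 6.15 to 68.5 ± 7.74 CPM (log2 fold change -0.35, SE 0.12, adjusted p = 0.0417). After ISRIB, edgeR called none of the 18, where 2.2% of all genes were called. Of the 18, 2 had an unadjusted p under 0.05 in edgeR, where 1934 of all 12054 genes had. DESeq2 called 1, where it called 406 of the 12054.

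Of 77 cytosolic ribosomal protein genes tested after bleomycin, edgeR called 1 higher and 5 lower, below the 11.2% and 9.31% of all genes. Their median was -0.14. DESeq2 called 8 in all, where it called 2526 of all 11223 genes. Rps2 rose by 0.43 (SE 0.14, adjusted p = 0.0328), and Rps14 fell by 0.72 (SE 0.15, adjusted p = 0.00225) and Rpl14 by 0.43 (SE 0.10, adjusted p = 0.00562) on the log2 scale. After ISRIB, none of 78 was called by edgeR or DESeq2, where edgeR called 2.2% of all genes and DESeq2 406 of 12054. None had an unadjusted p under 0.05 in edgeR, where 1934 of all 12054 genes had. The median was 0.01.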

How the data were processed

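Each kit has 1 deposited table of whole-number read counts for each gene, a unit taken from the values themselves. Per the submitters' processing notes, tools used were bcl2fastq 2.19.1, FastQC, Trimmomatic 0.36, STAR 2.6.0 and HTSeq 0.11.2, with build mm10. No source used here gives the strand setting, counting mode or annotation. Groups were taken from the labels. Symbols came by gene ID from GENCODE M21, which named 42462 of 43430 IDs. Genes were kept by edgeR's filterByExpr (minimum count 10, minimum total 15), scaled by TMM and tested with edgeR 4.0.16's quasi-likelihood F test in R 4.3.3, two-sided, within each kit, on group alone. Adjusted p-values are Benjamini-Hochberg over all genes tested, called under 0.05. SEs are the log2 fold change divided by the root of F, and 95% intervals use the t quantile of each gene's degrees of freedom in that fit. CPM are TMM-scaled, except for marker sums, which use total counts. The estimated variation between replicates (BCV) was 7.66% for ISRIB and 21.1% for bleomycin. The fits were first tested on simulated counts.

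The host genes and all gene lists were chosen with earlier results of these data known. All host genes are named; of a list, called genes are named, at most the 4 with the lowest p in each direction. DESeq2 1.42.0, no filter, DESeq2 size factors, a replicate term, leaving out each library and, for bleomycin, leaving out ribosomal-RNA-like, mitochondrial and snoRNA models were the alternatives.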

Additional observations from a re-analysis of the deposited data

Results flagged for a closer look

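Over 28 groups of 4 or 5 libraries (7 host genes in 4 groups), 2 held a library far from the others, and chance gives about 1 in 20. Snhg5 was at 5.61 CPM in ISRIB 2, the next ISRIB library being at 3.68 CPM. Gas5 was at 26.9 CPM in bleomycin 4, the next bleomycin library being at 46.4 CPM.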

How the results depend on the processing

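After ISRIB, 265 genes were called; without a filter the count was 648, and with DESeq2 406. Leaving out a library gave 86 to 269, with 86 without vehicle 1, 102 without vehicle 2 and 159 without ISRIB 4. No host gene passed the threshold under any alternative that gave an adjusted p; DESeq2 gave none for Snhg3, Snhg5, Snhg6 and Snhg12. On leaving out a library, Snhg11 was at 0.16 to 0.46, Snhg12 at 0.13 to 0.35 and Gas5 at 0.042 to 0.16. The sign of 3 low host genes turned, over ranges on leaving out a library of -0.29 to 0.049 for Snhg3, -0.12 to 0.22 for Snhg5 and -0.094 to 0.19 for Snhg6. Snhg3 was at 0.035 without vehicle 4, 0.0082 without ISRIB 1 and 0.049 without ISRIB 4. Snhg5 was at -0.027 without vehicle 1 and -0.12 without ISRIB 2. Snhg6 was at -0.094 without vehicle 1, -0.052 without vehicle 2 and -0.050 without ISRIB 1. The cause was not tested.

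After bleomycin, 2304 genes were called, 1554 to 2584 on leaving out a library and 2187 to 2589 otherwise. The log2 fold change of Snhg11 was -2.11 to -1.90, of Snhg12 -0.92 to -0.56, of Gas5 -0.42 to -0.23 and of Snhg5 -0.40 to 0.01 on leaving out a library. Same-numbered libraries did not deviate together (correlations of -0.11 to 0.08 in the ISRIB and -0.04 to 0.05 in the bleomycin experiment), so the numbers were not taken as pairs. With a replicate block, 277 genes were called after ISRIB and 2187 after bleomycin, and Snhg11 was at 0.30 (adjusted p = 0.234, edgeR) and -2.07. Counts of at most 20 a library limit Snhg3 and Snhg15. Without ribosomal-RNA-like, mitochondrial and snoRNA models, 2226 genes were called after bleomycin and Snhg11 was at -2.02.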

Other observations

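Protein-coding genes that host a snoRNA in the annotation, a set drawn after the data were seen, were called in 6 of 226 cases after ISRIB (5 higher, 1 lower) and in 41 of 218 after bleomycin (30 higher, 11 lower, median log2 fold change -0.02), by edgeR, where 2.2% of all genes were called after ISRIB and 11.2% higher and 9.31% lower after bleomycin. After bleomycin, Top2a, the topoisomerase of dividing cells, rose by 3.22 (SE 0.30, adjusted p = 9.95e-07) and Cep55, a cytokinesis protein, rose by 3.38 (SE 0.44, adjusted p = 2.87e-05) on the log2 scale. Prps2, which makes the sugar phosphate for nucleotide synthesis, fell by 0.82 (SE 0.12, adjusted p = 0.000123) and Rbmx, an RNA-binding protein, fell by 0.63 (SE 0.14, adjusted p = 0.00341).

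Of 10 other noncoding hosts by annotation tested after bleomycin, 9 were below 0, with a median of -0.42, where 5587 of all 11223 genes were below 0. The noncoding host genes listed above were not removed from this set. By edgeR, 1110038B12Rik was called lower (log2 fold change -1.22, SE 0.29, adjusted p = 0.00544). Cct6a, a chaperonin gene typed as noncoding there, was called higher (0.52, SE 0.13, adjusted p = 0.00813). These calls are near the 9.31% of all genes called lower and 11.2% higher. After ISRIB, edgeR called none of 14 tested, with 8 above 0 and 6 below, where 2.2% of all genes were called.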
